A study of Rattus norvegicus with 4 samples.

Results

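Late-differentiating keratinocytes were examined in single-cell RNA data of rat skin. These are the epidermal cells that leave the dividing basal layer, load themselves with envelope proteins, lipids and proteases, and end as dead cornified squames. In this process loricrin, involucrin and the small proline-rich and late cornified envelope proteins are crosslinked by transglutaminases under the cell membrane, while kallikrein proteases loosen the desmosomes that hold squames together. Spink5 encodes LEKTI, the inhibitor that restrains those kallikreins, and Lce1m encodes a late cornified envelope protein. The cells were chosen by a rule on raw UMIs (molecules counted once through their barcode tag) from skin barcodes with 500 or more genes and no more than 20% mitochondrial UMIs, called kept cells. A cell had at least 3 UMIs of Lce1m and Spink5 together, under 5 of the cell cycle genes Mki67, Top2a and Cenpf, under 10 of the inner root sheath keratins Krt25 and Krt28, and under 5 of the hair keratin Krt33b. The rule found 499 cells, 348 in skin replicate 1 and 151 in skin replicate 2, among 23902 kept skin cells and 37722 kept cells of the whole series. Values of these 8 genes chose the cells and are given below as a description only.

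The study compared the cell makeup of skin with that of subcutaneous fascia, the loose connective layer below it, in wild-type rats. It holds 2 droplet libraries of skin and 2 of subcutaneous fascia, all of 1 genotype and without treatment. Strain, age and sex are not given in the sources used here, nor whether the 2 libraries of a tissue came from separate animals, so every p-value below measures only the spread between sums of these libraries. Tissue was digested with collagenase type 4 and elastase, passed through strainers and depleted of dead cells before capture, and how far such steps remove cornifying cells was not tested. The 4 libraries held 83852172 to 95777810 UMIs. Kept skin cells had a median of 9039.5 UMIs in replicate 1 and 2352.5 in replicate 2. Any pair of libraries shared 17 to 45 barcodes, and the late cells of the 2 skin libraries shared 1.

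Late cells made up 4.66% of the kept cells of skin replicate 1 (348 of 7460, exact 95% interval 4.20% to 5.17%) and 0.918% of skin replicate 2 (151 of 16442, 0.778% to 1.08%). In fascia the rule found 0 of 6812 and 0 of 7008 cells, which allows shares of up to 0.0440% and 0.0428%, and no kept fascia cell had a UMI of Lce1m or Spink5. Since a fixed number of UMIs favours deep cells, each skin cell was also thinned to 5000 UMIs. The share was then 2.83% of 6077 cells in replicate 1 (2.43% to 3.28%) and 0.838% of 4892 cells in replicate 2 (0.602% to 1.14%), with 1383 and 11550 shallower cells left out. The same cells before thinning gave 5.50% and 2.33%. A rule on the fraction of a cell's UMIs, at least 0.03%, gave 3.66% and 2.58%. The intervals cover counting error only, and the libraries were not compared by a test.

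Free RNA in the droplets was measured in skin cells of a fibroblast gate, which should lack both genes. This gate took cells with at least 1% of UMIs from the fibroblast list and under 0.5% from Krt5, Krt15, Krt17, Krt1 and Krt10. Its keratin limit can leave out droplets with much stray keratinocyte RNA, so the shares may be low. In this gate 1.57% of 381 cells in replicate 1 and 0.524% of 572 in replicate 2 had 1 or more UMIs of the 2 genes. None in either replicate reached 3, at median depths of 12417 and 5078.5 UMIs. The corresponding shares of all kept skin cells with 1 or more UMIs were 10.5% and 5.25%. Late cells were deep, with a median of 19644 UMIs and 3749 genes in replicate 1 and 11560 UMIs and 2900 genes in replicate 2. The doublet caller itself marked 0% and 0.0061% of kept skin cells, so a fixed share of the highest scores was taken, 5.97% and 13.2% of kept skin cells, which held 19 and 8 late cells (5.46% and 5.30%).

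Sequence upstream of 3 genes is shown because these genes mark different parts of the group: Lce1m from the rule, Loricrin, which followed Lce1m, and Sprr1a, which did not. Each line gives the 250 bases before the RefSeq start, from the GRCr8 build, on the strand of the gene. The windows lie at chr2:181334301-181334550 for Lce1m, chr2:180256573-180256822 for Loricrin and chr2:180752626-180752875 for Sprr1a, all on the minus strand.
Lce1m: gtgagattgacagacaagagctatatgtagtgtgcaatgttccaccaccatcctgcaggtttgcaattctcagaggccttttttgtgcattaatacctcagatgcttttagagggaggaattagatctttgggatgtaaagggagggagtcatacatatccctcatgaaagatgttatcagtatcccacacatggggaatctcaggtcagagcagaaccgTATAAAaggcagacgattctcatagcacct
Loricrin: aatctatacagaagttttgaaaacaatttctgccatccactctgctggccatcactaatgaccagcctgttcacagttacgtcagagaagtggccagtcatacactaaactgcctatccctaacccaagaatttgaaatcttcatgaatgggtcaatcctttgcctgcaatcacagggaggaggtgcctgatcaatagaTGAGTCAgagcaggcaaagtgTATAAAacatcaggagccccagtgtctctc
Sprr1a: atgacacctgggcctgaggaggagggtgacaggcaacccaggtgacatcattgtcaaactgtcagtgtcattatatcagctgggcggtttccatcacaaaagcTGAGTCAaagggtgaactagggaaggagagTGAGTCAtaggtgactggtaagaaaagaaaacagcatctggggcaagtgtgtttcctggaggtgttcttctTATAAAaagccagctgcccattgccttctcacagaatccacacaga
Capitals mark TATAAA, the TATA box, and TGANTCA, the core bound by AP-1 factors, searched on both strands. TATAAA began 30 bases before the start of Lce1m, 30 before Loricrin and 46 before Sprr1a. TGANTCA began 51 bases before Loricrin and 147 and 117 bases before Sprr1a, and these letters are not in the Lce1m window. Over all 33469 windows of this length, 6.34% held TGANTCA and 12.9% held TATAAA. Of the 44 symbols in the cornified envelope list, 27 matched a window, of which 6 (22.2%) held TGANTCA and 8 (29.6%) held TATAAA. In the same order, these motifs were held by 3 and 2 of 10 windows of the spinous list, 4 and 4 of 16 of the protease inhibitor list, 3 and 0 of 16 of the protease list and 2 and 2 of 11 (18.2% each) of the basal list. A match in a window is a description of its letters.

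Within the group, few cells held UMIs of both genes of the rule. In replicate 1, 9 cells had more Lce1m than Spink5 UMIs, 338 had more Spink5 and 1 was tied, while in replicate 2 the numbers were 34 and 117 with no tie. Lce1m had a UMI in 19 and 37 late cells of replicates 1 and 2, and Spink5 in 347 and 120. Both genes had a UMI in 18 cells of replicate 1 and 6 of replicate 2. In replicate 1 nearly all cells with Lce1m thus also held Spink5, while in replicate 2 most did not. The sum of both genes had a median of 8 UMIs in replicate 1 and 5 in replicate 2, so most cells lay close to the limit, and a maximum of 2455 and 1308. Spink5 reached 207 UMIs in 1 cell of replicate 1 and 55 in replicate 2. Lce1m made up as much as 14.7% of a cell's UMIs in replicate 1 and 14.8% in replicate 2, and the top 2 cells held 64.4% and 73.6% of all Lce1m UMIs. Just inside the limit stood 43 and 44 cells with 3 UMIs, with summed Sbsn at 4293 and 2980 CPM, the UMIs of a gene scaled to the same total in every sum. Just outside stood 93 and 87 cells with 2 UMIs and Sbsn at 2697 and 2671 CPM.

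**Figure D1:**
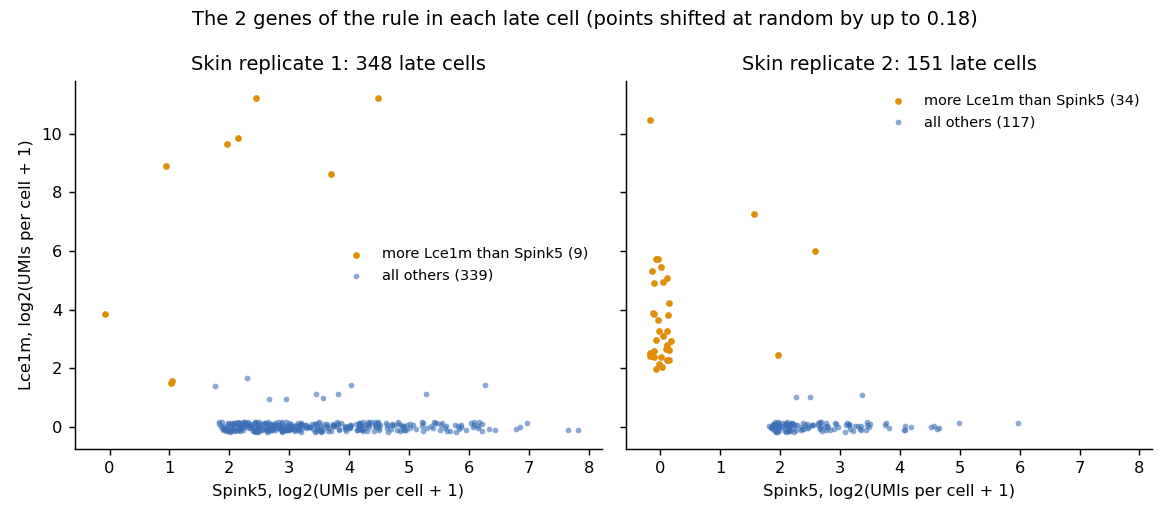
Each point is 1 late cell, with its Spink5 UMIs on the x axis and its Lce1m UMIs on the y axis, both as log2(UMIs + 1) and shifted slightly at random, in skin replicate 1 (left) and replicate 2 (right). Orange marks cells with more Lce1m than Spink5 (9 and 34) and blue all others (339 and 117). Only orange cells reach high Lce1m, while 2 of them in replicate 1 and 1 in replicate 2 lead by 1 UMI and lie close to blue ones.

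The Lce1m-led cells of the 2 replicates were not alike. In replicate 1 the 9 cells had a median of 468 Lce1m UMIs, 15024 UMIs, 1768 genes and 0.0884% mitochondrial UMIs, and 1 of them had no Spink5 UMI. In replicate 2 the 34 cells had a median of 8 Lce1m UMIs, 2068.5 UMIs, 1131.5 genes and 2.54% mitochondrial UMIs, and 31 had no Spink5 UMI. Spink5-led cells had medians of 19900.5 UMIs and 2.44% mitochondrial UMIs in replicate 1 and 13638 UMIs and 2.85% in replicate 2. The low mitochondrial share of Lce1m-led cells was therefore seen in replicate 1 alone. The 2 cells of replicate 1 and the 1 of replicate 2 that led by 1 UMI held 31.9% and 6.10% of the UMIs of the Lce1m-led cells.

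The label was met in part. Sbsn (suprabasin, a secreted protein of suprabasal cells) had a UMI in 334 of 348 and 135 of 151 late cells, and Sprr1a (an envelope precursor) in 235 and 88. Loricrin, the main protein of the finished envelope, made up 0.1% or more of UMIs in only 11 and 27 cells, and Lce1m-led cells held 95.4% of its UMIs in replicate 1 and 98.6% in replicate 2. Krt14, Flg, Flg2, Hrnr, Krtdap, Klk7 and Asprv1 were not analysed here. The rule thus gathered several kinds of keratinocyte, and nearly all of the Loricrin lay in its Lce1m-led cells.

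Keratin gates chosen after the values were seen separated 5 kinds, which are described without a test. Lce1m-led cells were 9 (2.59%) and 34 (22.5%) of the late cells in replicates 1 and 2. Of the others, cells with at least 0.1% of UMIs from Krt75 and Tchh were 19 (5.46%) and 0, which allows at most 2.41% in replicate 2 (exact interval). Next, cells with at least 0.1% from Krt79 were 146 (42.0%) and 62 (41.1%), and cells with at least 0.5% from Krt1 and Krt10 were 65 (18.7%) and 26 (17.2%). The remaining 109 (31.3%) and 29 (19.2%) cells passed none of these gates. By UMIs instead of cells, the Krt79 kind supplied 42.5% and 42.6% of the late sums and the Krt1 or Krt10 kind 27.9% and 28.8%, so these 2 kinds weigh most in every sum below.

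The Krt79 kind carries a keratin that in mouse marks the funnel of the hair follicle and the sebaceous duct. Its Krt79 stood at 5726 and 6987 CPM in replicates 1 and 2, and Krt17, a keratin of hair follicle and appendage cells, at 15140 and 13300 CPM. Cst6, which encodes cystatin M/E, an inhibitor of cathepsins in cornifying cells, had 16720 and 5664 CPM there. Sbsn had 9274 and 6315 CPM, and the chemokine gene Ccl20 had 3588 and 706 CPM.

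The Krt1 or Krt10 kind carries the keratin pair of the spinous layer of the epidermis between follicles. It had 20940 and 14330 CPM of Krt10 and 7548 and 8876 CPM of Krt1. Krt77, a keratin that in mouse lies in suprabasal epidermis, had 4440 and 936 CPM, and Ly6d, a surface protein of the Ly6 family, had 6955 and 4864 CPM. Sprr1a stood at 8084 CPM in replicate 1 and 1213 CPM in replicate 2, a wide gap between the libraries.

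The Krt75 or Tchh kind was found in replicate 1 only. Krt75 is a keratin of the companion layer of the hair follicle, and Tchh encodes trichohyalin of the inner root sheath. These 19 cells had 6620 CPM of Krt75, 947 CPM of the hair and nail keratin Krt84, 30240 CPM of the fatty acid carrier Fabp4, 23130 CPM of Krt17 and 1516 CPM of the desmosomal cadherin Dsc2. They also held envelope genes, with Cnfn (cornifelin) at 7381 CPM, Csta (cystatin A) at 5147 CPM and Ivl (involucrin) at 811 CPM. The limits on Krt25, Krt28 and Krt33b thus left cells with follicle keratins in the late sum of replicate 1. The summed level of the inner root sheath and hair shaft list of 25 genes was 648 CPM in late cells of replicate 1, with 3 genes at 0, and 69.9 CPM in those of replicate 2, with 14 at 0.

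The cells outside all gates had more of the basal genes. Krt15, a keratin of basal cells that in mouse also marks the follicle bulge, had 10640 and 17940 CPM, Krt5 2619 and 5412 CPM, and Id1, an inhibitor of differentiation factors, 1117 and 955 CPM. Their Spink5, through which the rule chose them, stood at 830 and 295 CPM.

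**Figure D2:**
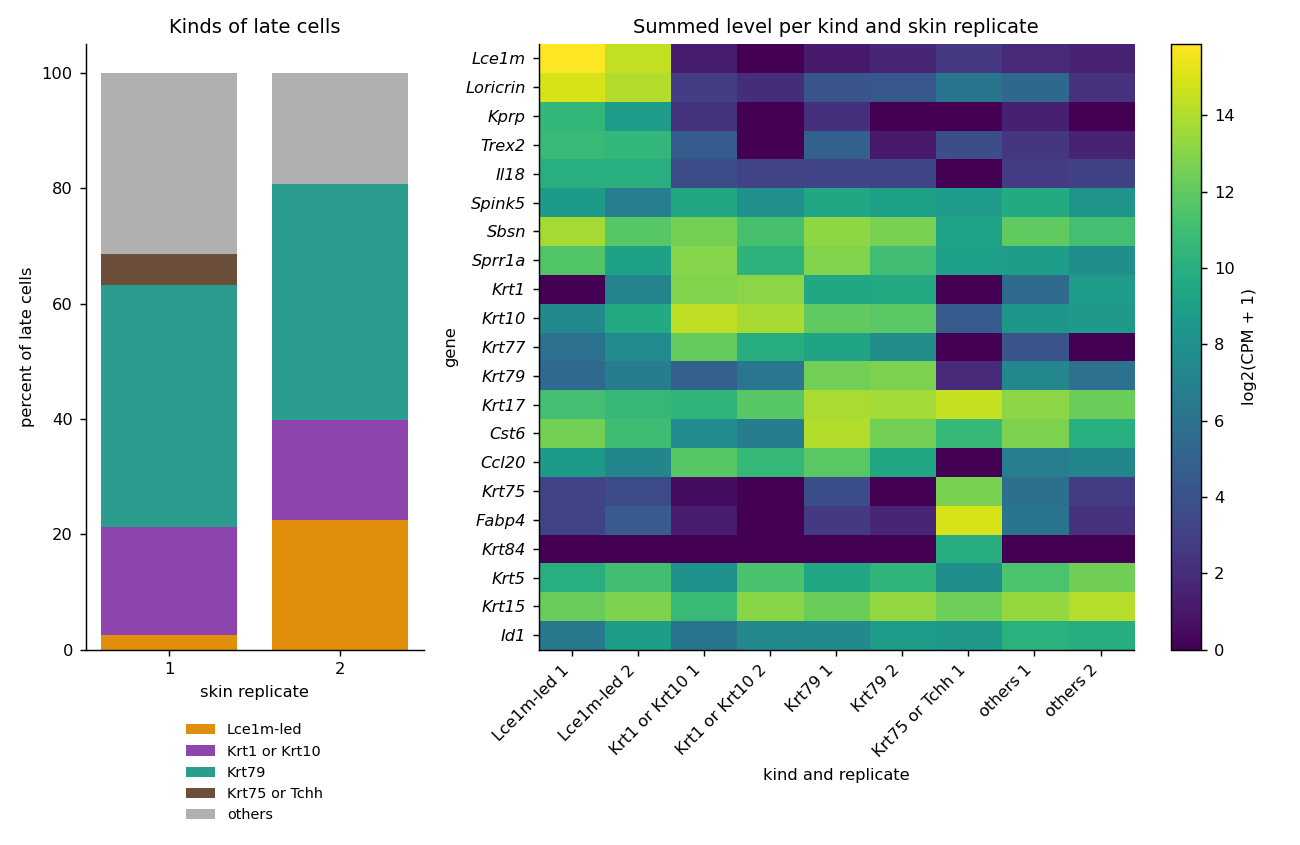
Left, the share of late cells of each kind in skin replicates 1 and 2, in percent. Right, summed levels of 21 genes as log2(CPM + 1) per kind and replicate: Lce1m, Loricrin, Kprp, Trex2 and Il18 are high in the Lce1m-led columns, and Krt75, Fabp4 and Krt84 in the Krt75 or Tchh column, which exists in replicate 1 only.

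For comparison, other skin keratinocytes without a UMI of Lce1m or Spink5 were divided into disjoint classes by keratins, Ly6d and cell cycle genes. Cells with at least 0.1% of UMIs from Ly6d and less from Krt79 (445 and 6652 in replicates 1 and 2) are called Ly6d keratinocytes. Krt10 summed to 7688 and 5792 CPM in late cells and 5725 and 1714 CPM in Ly6d keratinocytes. Cells with at least 0.1% from Krt79 numbered 182 and 782, cycling cells 178 and 297, and basal-like cells with little of either gene but at least 0.5% from Krt5 numbered 629 and 1131. Median depths in replicates 1 and 2 were 13162 and 1962.5 UMIs in Ly6d cells and 13465.5 and 1746.5 in Krt79 cells. Basal-like cells had 7495 and 3054 UMIs, and late cells 19644 and 11560. A shallow late cell can lack UMIs of both rule genes, and how many such cells these classes hold was not tested. Markers of other cell types reached 0.5% of UMIs in 0.549% and 25.2% of Krt79 cells and 0% and 17.6% of basal-like cells. UMIs were summed per class and library, and classes were compared across the 2 libraries with edgeR's quasi-likelihood test, with the library as a block and Benjamini-Hochberg adjustment over all genes tested. Genes that define a class got no test. Folds are given as log2 change with its standard error (SE).

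Set against Ly6d keratinocytes, late cells were higher in 11 of 17 tested genes of the cornified envelope list, 6 of 16 protease genes, 6 of 13 protease inhibitor genes and 9 of 33 lipid barrier genes. They were lower in 5 of 17 genes of the basal and hemidesmosome list. Of 12923 genes, 711 passed the threshold of 0.05 on the adjusted p, which is 5.5% of those tested, with 465 higher (3.6%) and 246 lower (1.9%) in late cells. The median change of all genes was -0.07. A gene with few UMIs in Ly6d cells passed the filter on low counts only by being high in another class, and could not be called lower. Each list is therefore also counted over the members that reached the limit of the filter (10 counts at the median sum, or 2.1 CPM) in both Ly6d sums.

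In the cornified envelope list, 17 of the 25 genes in the table passed the filter on low counts, and of these 11 rose. Of the 10 at the limit in Ly6d cells 4 rose and none fell, with a median log2 change of 1.18. Lce1l, a further late cornified envelope gene, had 249.9 and 389 CPM in late cells of replicates 1 and 2, against 1.83 and 0.600 CPM in Ly6d cells, a change of 8.51 (SE 0.84, edgeR adjusted p = 0.00319). Loricrin had 477 and 719 CPM in late cells, against 5.79 and 8.55 CPM in Ly6d cells, a change of 6.49 (SE 0.33, edgeR adjusted p = 0.000474). Crct1, a cysteine-rich protein gene of the same gene cluster, had 61.3 and 60.9 CPM against 0.305 and 0.177 CPM in Ly6d cells, a change of 8.08 (SE 0.41). All 3 genes were far apart in both libraries and close between the late sums of the 2 libraries.

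Cnfn had 1246 and 211 CPM in late cells, against 2.74 and 1.59 CPM in Ly6d cells, a change of 8.43 (SE 1.23, edgeR adjusted p = 0.0116). Ivl had 43.6 and 12.3 CPM in late cells, against 0.152 and 0.389 CPM in Ly6d cells, a change of 6.04 (SE 0.64). Evpl and Ppl, which encode the plakins that tie the envelope to desmosomes, rose by 1.44 (SE 0.26) and 1.17 (SE 0.18). Kprp, a proline-rich envelope gene with 240 UMIs in late cells and 2 in Ly6d cells, stood 411 times higher (counting interval 113 to 3417). Such ratios pool the UMIs of both libraries and leave out the block. Genes of the Lce family are near copies of each other, and how the authors' counting divided reads between them is uncertain.

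Which late cells supplied these molecules differed by gene and replicate. Lce1m-led cells held 97.6% and 99.8% of the Lce1l UMIs of late cells in replicates 1 and 2, and 63.8% and 87.6% of those of Crct1. For Csta they held 25.4% in replicate 1 and 98.8% in replicate 2, for Ivl 3.99% and 92.3%, and for Cnfn 11.7% and 83.4%. In replicate 1 the Krt75 or Tchh kind, 4.65% of late UMIs, had 811 CPM of Ivl, 5147 of Csta and 7381 of Cnfn. The Krt79, Krt1 or Krt10 and remaining kinds of that replicate had at most 8.19 CPM of Ivl, 7.56 of Csta and 1087 of Cnfn. Replicate 2 had no cells of the Krt75 or Tchh kind. With the Spink5-led cells alone, 4 of 13 envelope genes remained higher (Cnfn, Crct1, Evpl and Ppl). Of these only Evpl and Ppl had reached the limit of 2.1 CPM in both Ly6d sums. The whole comparison called 591 of 12889 genes, 390 higher and 201 lower, of which 570 were among the 711. Loricrin then changed by 1.51 (SE 0.61, edgeR adjusted p = 0.199) and Lce1l by 1.86 (edgeR adjusted p = 0.407). Crct1 kept a change of 5.83 (edgeR adjusted p = 0.00394).

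Sprr1a and Sbsn were given as markers of these cells. Sprr1a is also a member of the envelope list and is included in its counts, here as a gene not called. Sprr1a had 5628 and 1298 CPM in late cells, against 1605 and 71.2 CPM in Ly6d cells, and the sums overlapped, since the Ly6d sum of replicate 1 exceeded the late sum of replicate 2 (log2 change 2.52, SE 0.81, edgeR adjusted p = 0.12). Sbsn had 6803 and 4093 CPM in late cells, against 1109 and 170 CPM in Ly6d cells (3.44, SE 0.54). Of the 4 transglutaminase genes tested, Tgm1, the membrane enzyme that crosslinks the envelope, rose by 2.52 (SE 0.52), with 155.5 and 61.4 CPM in late cells against 34.9 and 8.12 CPM in Ly6d cells. Tgm2, the widely expressed tissue enzyme, fell by 3.43 on the log2 scale, with 0.124 and 0.472 CPM in late cells against 1.37 and 6.04 CPM in Ly6d cells. Only 2 UMIs of Tgm2 lay in late cells. Pooled over both libraries without the block, Ly6d cells stood 26.25 times higher (counting interval 7.16 to 218). That is more than in either library alone, and most late UMIs lay in replicate 1 but most Ly6d UMIs in replicate 2. Tgm2 did not pass with the rule of 0.03% of UMIs (log2 change -0.61, edgeR adjusted p = 0.686), without the cells of highest doublet score (edgeR adjusted p = 0.197) or with DESeq2 (adjusted p = 0.106). Tgm3 stood at 28.1 and 101.5 CPM in late cells against 200.3 and 387 CPM in Ly6d cells, and did not pass (edgeR adjusted p = 0.133).

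Of 16 protease genes tested 6 rose: Klk5, Klk6, Klk8, Klk10, Casp14 and Tmprss13. Of the 10 at the limit in Ly6d cells 3 rose and none fell (median 0.95). Klk10, a kallikrein of the granular layer, had 209 and 156 CPM in late cells, against 7.32 and 6.53 CPM in Ly6d cells, a change of 4.77 (SE 0.40, edgeR adjusted p = 0.00207). Klk5, which starts the kallikrein cascade and is the main target of LEKTI, had 43.2 and 25.0 CPM in late cells, against 2.59 and 3.67 CPM in Ly6d cells, a change of 3.55 (SE 0.52). Casp14, the caspase of cornification that acts in filaggrin breakdown, had 33.4 and 21.7 CPM against 3.51 and 2.05 CPM in Ly6d cells (3.40, SE 0.31). None of these sums overlapped between the classes.

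Of 13 protease inhibitor genes tested 6 rose, and of the 10 at the limit in Ly6d cells 3 rose and none fell (median 1.37). Cst6 had 8893 and 2771 CPM in late cells, against 139.6 and 139.6 CPM in Ly6d cells, a change of 5.26 (SE 0.39, edgeR adjusted p = 0.00193). The Cst6 signal was concentrated, since the top 10 late cells held 63.4% of its UMIs in replicate 1 and 76.8% in replicate 2. Csta had 327 and 117 CPM in late cells, against 8.69 and 8.94 CPM in Ly6d cells (4.67, SE 0.55), a call lost in Spink5-led cells alone (3.52, edgeR adjusted p = 0.199). Slpi, the secretory leukocyte protease inhibitor, had 324 and 33.5 CPM in late cells against 30.3 and 4.87 CPM in Ly6d cells (3.29, SE 0.57).

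Of 33 lipid barrier genes tested 9 rose, and of the 24 at the limit in Ly6d cells 6 rose and none fell (median 0.82). Degs2, which makes the phytoceramides of skin, had 24.1 and 7.08 CPM in late cells, against 0.915 and 0.212 CPM in Ly6d cells, a change of 4.93 (SE 0.60). Elovl4, the elongase of ultra-long acyl chains, had 125.5 and 59.5 CPM in late cells, against 29.6 and 5.09 CPM in Ly6d cells (2.72, SE 0.60), and 2.60 with Spink5-led cells alone (edgeR adjusted p = 0.0574). With DESeq2 Elovl4 did not pass (adjusted p = 0.166). Sult2b1, which makes cholesterol sulfate, had 112 and 83.1 CPM against 36.4 and 11.6 CPM in Ly6d cells (2.19, SE 0.46). Psapl1, a prosaposin-like gene outside the lists, had 103 and 88.3 CPM in late cells, against 5.03 and 3.92 CPM in Ly6d cells, a change of 4.50 (SE 0.21). Cers3, the ceramide synthase of ultra-long chains, had 93.9 and 38.7 CPM in late cells against 114.6 and 60.9 CPM in Ly6d cells, with sums that overlapped, and did not pass (edgeR adjusted p = 0.866).

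Of 8 tested genes of the Ly6 and Slurp family 5 rose, Ly6d itself being untested as a class gene, and of the 4 at the limit in Ly6d cells 1 rose (median 0.54). Ly6g6c, a surface protein gene of this family, had 792 and 160.5 CPM in late cells, against 56.6 and 4.45 CPM in Ly6d cells (4.27, SE 0.85). Slurp1 encodes a secreted ligand whose loss causes a palmoplantar skin disease in humans. It had 132 UMIs in late cells and 2 in Ly6d cells, a pooled ratio of 226 (counting interval 61.4 to 1888). Of 14 genes for organelle clearance, nucleases and autophagy, 7 rose, and of the 10 at the limit in Ly6d cells 3 rose and none fell (median 0.63). Trex2, a DNA exonuclease of keratinocytes, had 45.3 and 62.3 CPM in late cells, against 0.915 and 0.177 CPM in Ly6d cells (7.18, SE 0.80). With Spink5-led cells alone, 4 of 13 of these genes were higher.

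In the desmosome list 2 of 13 genes rose, Dsc1 (3.29, SE 0.43) and Jup (0.77, SE 0.16), with a list median of 0.50. Only Jup rose among the 10 at the limit in Ly6d cells, and none fell (median 0.16). In the tight junction list 3 of 17 rose, and 2 of the 15 at the limit, with none lower (median 0.18). Among them was Cldn1, the claudin of the granular layer barrier. It had 875 and 483 CPM in late cells against 337 and 78.3 CPM in Ly6d cells (1.95, SE 0.40). Of 32 transcription factor genes, 5 rose: Elf3, Sox9, Barx2, Hopx and Grhl1. All 5 were among the 30 at the limit in Ly6d cells, of which none fell (median 0.27). Grhl1 did not pass with Spink5-led cells alone (edgeR adjusted p = 0.0534), nor Jup with the rule of 0.03% of UMIs (edgeR adjusted p = 0.137). Sox9, a factor of hair follicle cells, had 435 and 326 CPM in late cells, against 92.1 and 60.6 CPM in Ly6d cells (2.39, SE 0.24). Klf4, a factor of barrier formation, had 1278 and 1695 CPM in late cells against 996 and 1422 CPM in Ly6d cells, with sums that overlapped, and did not pass (edgeR adjusted p = 0.293).

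Of 17 basal and hemidesmosome genes, none rose and 5 fell (median -0.78), among them Bcam, Lama3, Itgb1 and Itga6. Lama3, a chain of laminin-332, had 31.7 and 107 CPM in late cells, against 156 and 249 CPM in Ly6d cells, a log2 change of -1.68. Itgb1, the beta-1 integrin, had 91.3 and 137 CPM against 272 and 409 CPM in Ly6d cells (-1.53, SE 0.18). Itga2, which pairs with it as a collagen receptor, had 14.7 and 44.9 CPM against 109.6 and 159 CPM in Ly6d cells (-2.31). The matrix gene Thbs1 (-1.87), the matrix gene Smoc2 (-1.86) and the growth factor binding protein gene Igfbp2 (-2.20) also fell. Bcam did not pass with Spink5-led cells alone (edgeR adjusted p = 0.0534), nor Itga2 with the rule of 0.03% of UMIs (edgeR adjusted p = 0.059). In a fit of the 2 classes alone, Itga6 did not pass (edgeR adjusted p = 0.0733). Beside these falls, the fibroblast marker list summed to 651 and 269 CPM in late cells, against 655 and 3522 CPM in Ly6d cells. The endothelial list summed to 2.98 and 1.89 CPM against 9.30 and 137 CPM. Cells with 0.5% or more of UMIs from other cell types were 7 of 348 and 3 of 151 late cells, against 3 of 445 and 1987 of 6652 Ly6d cells, and the part of this in the lower genes was not tested.

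**Figure D3:**
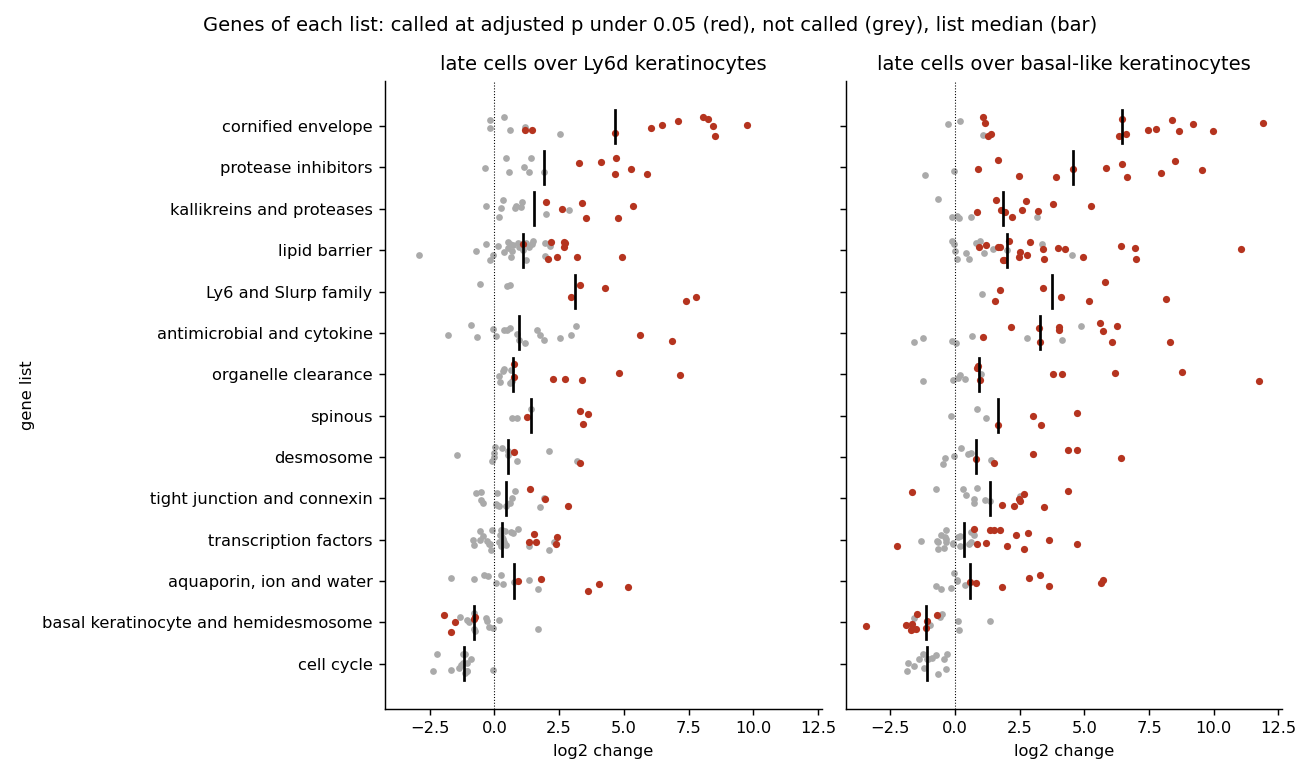
Log2 change of every tested gene of 14 lists, late cells over Ly6d keratinocytes (left) and late cells over basal-like keratinocytes (right), with called genes in red, others in grey and a bar at the list median. Genes with few UMIs in the other class could not lie far below 0. The basal list, whose 17 genes all reached the limit of the filter in both Ly6d and basal-like sums, has medians of -0.78 and -1.12.

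Basal-like keratinocytes are a class set by marker genes alone, and their place in epidermis or hair follicle was not tested. Set against them, late cells gave a wider set of calls, over which the same lists were counted. Of 12923 genes, 1678 passed, which is 13.0% of those tested, with 950 higher (7.35%) and 728 lower (5.63%) in late cells, and a median over all genes of -0.06. The 2 comparisons share the late sums, so each is described on its own. Without Lce1m-led cells 1513 of 12889 genes were called, 867 higher and 646 lower, and 1475 of them were among the 1678.

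Of 17 envelope genes 14 rose, and of the 9 at the limit of the filter in both basal-like sums 6 rose and none fell (median 1.14). Both the 14 and the 6 include the given marker Sprr1a. Loricrin had 477 and 719 CPM in late cells, against 2.09 and 6.18 CPM in basal-like cells (7.44, SE 0.36, edgeR adjusted p = 0.000608), and 2.49 with Spink5-led cells alone (edgeR adjusted p = 0.0502). Crct1 had 623 UMIs in late cells and 0 in basal-like cells, which makes it at least 213-fold higher with 3 counts over both libraries as the floor. Sprr1a, a given marker, had 5628 and 1298 CPM in late cells against 41.9 and 29.2 CPM in basal-like cells (6.34, SE 0.97). Krt77 had 1507 and 378 CPM in late cells, against 1.33 and 0.966 CPM in basal-like cells (9.77, SE 1.36, edgeR adjusted p = 0.00821).

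Inhibitors rose in 11 of 13 cases and proteases in 10 of 16. Of those at the limit in basal-like cells, 4 of 6 inhibitors (median 1.29) and 7 of 11 proteases (median 1.57) rose and none fell. Serpinb3a, a serpin of squamous epithelium, had 390.0 and 61.4 CPM in late cells, against 0.948 and 0.773 CPM in basal-like cells (7.97, SE 1.06). Klk10 had 209 and 156 CPM against 27.3 and 18.0 CPM in basal-like cells (3.19, SE 0.37). Lipid barrier genes rose in 20 of 33 cases, and of the 19 at the limit in basal-like cells 11 rose and none fell (median 1.48). Elovl4 had 125.5 and 59.5 CPM against 0.190 and 1.35 CPM in basal-like cells (6.99, SE 0.89). Acer1, the alkaline ceramidase of the epidermis, had 94.2 and 41.1 CPM against 0.190 and 0.966 CPM in basal-like cells (6.94, SE 0.72).

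Against basal-like cells 11 of 19 antimicrobial and cytokine genes rose, and of the 8 at the limit 4 rose and none fell (median 0.88). Ccl20, the ligand of Ccr6, had 2532 and 784 CPM in late cells, against 16.5 and 44.8 CPM in basal-like cells (5.60, SE 0.83). Il36g, an interleukin of the IL-1 family made by keratinocytes, had 61.6 and 45.8 CPM against 0.379 and 1.16 CPM in basal-like cells (6.26, SE 0.84). Against Ly6d cells 2 of 19 such genes rose, Il1f10 and Defb14, neither of them among the 11 at the limit in Ly6d cells, and none did with Spink5-led cells alone. The leukocyte marker list summed to 159 and 190.3 CPM in late cells, against 18.2 and 119 CPM in basal-like cells, and 2 and 3 of its 11 genes were at 0 in late cells.

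Regulators and junctions rose in part. Of 32 transcription factor genes 12 rose and 1 fell (median 0.36), and the 31 at the limit in basal-like cells gave the same counts (median 0.19). Grhl3, which drives barrier formation, had 509 and 230 CPM in late cells, against 8.91 and 17.8 CPM in basal-like cells (4.70, SE 0.69), and Ovol1, which halts growth of suprabasal cells, had 328 and 449.5 CPM against 52.2 and 86.2 CPM (2.68, SE 0.34). Lhx2, a factor of follicle progenitors, was the one that fell (-2.26, SE 0.58). Lhx2 did not pass without the cells of highest doublet score (edgeR adjusted p = 0.0566). Of 17 tight junction and connexin genes 7 rose and 1 fell, and of the 14 at the limit 5 rose and 1 fell (median 1.01). Cldn4 had 1960 and 837 CPM in late cells against 104 and 47.5 CPM in basal-like cells (4.36, SE 0.63). Gja1 was the lower one (-1.66, SE 0.32). Of 13 desmosome genes 6 rose (median 0.83), and of the 9 at the limit 3 rose and none fell (median 0.50). Among the 6 but not the 3 were Dsg4 and Dsc2. These had 451 and 1516 CPM in the Krt75 or Tchh kind of replicate 1, against at most 1.17 and 6.22 CPM in any other kind of late cells.

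In the basal and hemidesmosome list 10 of 17 genes fell and none rose (median -1.12). Col17a1, a collagen of the hemidesmosome, had 228 and 688 CPM in late cells, against 1419 and 1483 CPM in basal-like cells (-1.69, SE 0.34). Itgb4, its integrin partner, had 63.1 and 134 CPM against 309 and 284 CPM in basal-like cells (-1.52, SE 0.26). Among genes of at least 50 CPM in basal-like cells and not named above, those that fell most were Grem1, an antagonist of bone morphogenetic proteins (-4.71), the glutamate receptor gene Grm8 (-4.71), Myoc (-4.43), Samd5 (-4.33), Krt24 (-4.10) and the taurine carrier gene Slc6a6 (-4.07). Slc6a6 had 23.0 and 34.9 CPM in late cells, against 533 and 497 CPM in basal-like cells. With the rule of 0.03% of UMIs, Grm8 (edgeR adjusted p = 0.0501), Myoc (0.0865) and Samd5 (0.0883) did not pass.

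**Figure D4:**
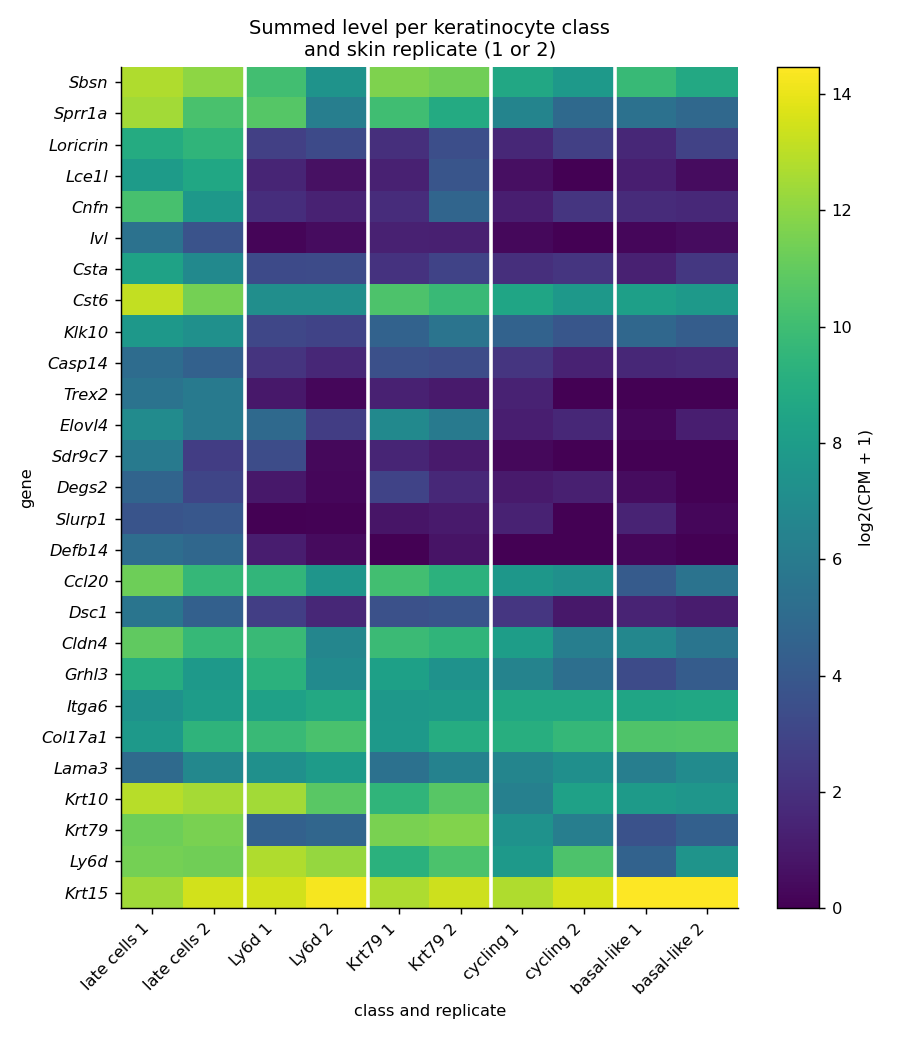
Summed level of 27 genes as log2(CPM + 1) in late cells and 4 other keratinocyte classes, for skin replicates 1 and 2. Loricrin, Lce1l, Cnfn, Cst6 and Klk10 are brightest in the late columns, Krt79 is nearly as bright in late cells (2479 and 3016 CPM) as in Krt79 cells (3026 and 3344 CPM), and Krt15 is brightest in the basal-like columns.

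Since the Krt79 kind supplied the largest share of late UMIs, late cells were also set against Krt79 keratinocytes without Lce1m and Spink5, a comparison added after the data were seen. Of 12923 genes 15 passed (0.116% of those tested), 14 higher (0.108%) and 1 lower (0.00774%) in late cells, with a median of -0.03 over all genes. At an unadjusted p under 0.05 there were 1987 genes, and DESeq2 called 326, so few calls do not show that the classes are alike. Loricrin had 477 and 719 CPM in late cells, against 2.93 and 10.3 CPM in Krt79 cells (6.79, SE 0.36, edgeR adjusted p = 0.00114). Of 17 envelope genes 5 rose: Kprp, Loricrin, Lce1f, Csta and Crct1. The 12 at the limit of the filter in both Krt79 sums included 3 of these, Loricrin, Csta and Crct1, and none fell (median 1.27). No gene was called in the protease (16 tested), lipid barrier (33), Ly6 and Slurp (8), organelle clearance (14) or basal (17) lists. Among protease inhibitor genes 1 of 13 rose (Csta), which was also the only call among the 11 at the limit in Krt79 cells. Among antimicrobial and cytokine genes 1 of 19 rose (Il1f10), and none of the 14 at the limit in Krt79 cells was called. Cysrt1, a cysteine-rich gene, had 217 and 138 CPM in late cells, against 7.34 and 7.12 CPM in Krt79 cells (4.79, SE 0.39), and Ctnnbip1, which encodes an inhibitor of beta-catenin, had 166 and 172 CPM against 81.8 and 81.8 CPM (1.25, SE 0.15). With Spink5-led cells alone, or with late cells inside the keratin gate of the other classes, no gene was called, and in that gate Loricrin changed by 4.28 (edgeR adjusted p = 0.119). Cldn1 (875 and 483 CPM in late cells, 882 and 559 CPM in Krt79 cells) and Grhl1 (227 and 190.3 CPM in late cells, 212 and 175 CPM in Krt79 cells) stood close together in the 2 classes.

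The late cells were then divided by the leading gene of the rule, and Lce1m-led cells were compared with Spink5-led cells in the same kind of fit. Lce1m-led cells were higher in 8 of 18 envelope genes, 6 of 15 organelle clearance genes and 6 of 19 antimicrobial and cytokine genes. They were lower in 4 of the envelope genes, 5 of 13 desmosome genes, 3 of 17 tight junction and connexin genes and 7 of 32 transcription factor genes. Of 12790 genes 715 passed (5.59% of those tested), 283 higher (2.21%) and 432 lower (3.38%) in Lce1m-led cells. The split depended on the scaling. The median of all genes was -0.55, it was 0.27 higher with relative log expression factors, and those gave 355 higher and 194 lower genes, DESeq2 666 and 240. List counts under both are therefore given where they differ. The Lce1m-led sums rest on 9 and 34 cells, and without the 2 and 1 that led by 1 UMI 645 genes were called, 256 higher and 389 lower.

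Of 18 envelope genes 8 rose and 4 fell (median 2.05), and the counts were the same under both other scalings. Of the 11 at the limit of the filter (here 2.46 CPM) in both Spink5-led sums, 3 rose and 4 fell (median -1.37). Loricrin had 30550 and 16690 CPM in Lce1m-led cells, against 22.1 and 10.4 CPM in Spink5-led cells (10.23, SE 0.81, edgeR adjusted p = 0.000147). Lce1l had 16370 and 9142 CPM against 6.19 and 0.986 CPM in Spink5-led cells (11.38, SE 0.98). For Lce1f, with 511 UMIs in Lce1m-led cells and 1 in Spink5-led cells, the pooled ratio was 24210 (counting interval 4325 to 958000). The 4 that fell were Evpl, Ppl, Cstb and S100a11. Evpl had 8.34 and 22.2 CPM in Lce1m-led cells against 100.1 and 113 CPM in Spink5-led cells (-3.10, SE 0.60). It had only 3 UMIs in Lce1m-led cells, and in pooled UMIs Spink5-led cells stood 7.18 times higher (counting interval 2.45 to 34.9). With only these 2 classes in the fit neither Evpl (edgeR adjusted p = 0.0618) nor Ppl (0.148) passed, nor did they with the rule of 0.03% of UMIs (0.0615 and 0.0539). Sbsn (13360 and 3381 CPM in Lce1m-led cells, 6720 and 4124 CPM in Spink5-led cells) and Sprr1a (2993 and 534 CPM in Lce1m-led cells, 5681 and 1332 CPM in Spink5-led cells) did not pass.

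Of 15 organelle clearance genes 6 rose and 1 fell (7 and 0 with relative log expression factors, 8 and 0 with DESeq2). At the limit in Spink5-led cells were 13, of which 5 rose and 1 fell (median 1.80), and Trex2 was not among these 13. Bnip3l, the mitophagy receptor Nix, had 2192 and 1179 CPM in Lce1m-led cells, against 95.5 and 89.3 CPM in Spink5-led cells (4.01, SE 0.36). Map1lc3b, an LC3 protein of the autophagosome membrane, had 1242 and 990 CPM against 108 and 77.9 CPM in Spink5-led cells (3.37, SE 0.25), and Gabarapl2 of the same family had 659 and 456 CPM against 40.9 and 32.1 CPM (3.72, SE 0.25). Inside the keratin gate, which holds 3 of the 9 and 30 of the 34 Lce1m-led cells, Gabarapl2 did not pass (log2 change 1.27, edgeR adjusted p = 0.0818). Trex2 had 1701 and 1446 CPM against 20.3 and 0.986 CPM in Spink5-led cells (7.23, SE 0.67). These 4 genes were higher in the Lce1m-led sums of both replicates. How their UMIs were spread over single cells was not tested. In replicate 2, 1 Lce1m-led cell had 1308 Lce1m UMIs at a median of 8. A relation to the mitochondrial share, which was low in replicate 1 alone, was not tested either.

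Of 19 antimicrobial and cytokine genes 6 rose and none fell (8 and 2 with DESeq2), and of the 13 at the limit in Spink5-led cells 3 rose and none fell. Il18 had 984 and 1045 CPM in Lce1m-led cells, against 8.34 and 8.38 CPM in Spink5-led cells (6.66, SE 0.51, edgeR adjusted p = 0.000124). Il1f10, which encodes interleukin-38, had 173 UMIs in Lce1m-led cells and 1 in Spink5-led cells, a pooled ratio of 8196 (counting interval 1452 to 325600). Il1a had 200.1 and 100.1 CPM against 14.7 and 4.44 CPM in Spink5-led cells (3.82, SE 0.68). Hal, the enzyme that makes urocanic acid from histidine, had 525 and 489 CPM against 13.7 and 0.986 CPM (5.85, SE 0.86). Blmh, the bleomycin hydrolase that cuts filaggrin fragments to amino acids, had 225 and 356 CPM against 45.4 and 46.8 CPM in Spink5-led cells (2.39, SE 0.21). Inside the keratin gate Hal (log2 change 2.91, edgeR adjusted p = 0.302), Il1a (1.88, 0.419) and Blmh (1.09, 0.107) did not pass.

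Of 13 desmosome genes 5 fell in Lce1m-led cells and none rose (3 with relative log expression factors, 5 with DESeq2). Dsp, the plakin that anchors keratin at desmosomes, had 408.5 and 901 CPM in Lce1m-led cells, against 1830 and 1714 CPM in Spink5-led cells (-1.71, SE 0.27). Cldn4 had 50.0 and 55.6 CPM against 1993 and 872 CPM in Spink5-led cells (-5.03, SE 0.82). Of 32 transcription factor genes 7 fell and none rose (5 with relative log expression factors, 8 with DESeq2), among them Klf4 with 558.5 and 1223 CPM in Lce1m-led cells against 1292 and 1715 CPM in Spink5-led cells (-1.06, SE 0.22). Klk10 had 41.7 and 0 CPM in Lce1m-led cells, against 212 and 163 CPM in Spink5-led cells (-3.21, SE 0.74). With relative log expression factors neither Klf4 (edgeR adjusted p = 0.0672) nor Klk10 (edgeR adjusted p = 0.0668) passed, and without the cells that led by 1 UMI Klf4 did not (edgeR adjusted p = 0.0632). Lgals7, galectin-7, had 1617 and 2380 CPM against 12490 and 11720 CPM in Spink5-led cells (-2.83, SE 0.27).

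**Figure D5:**
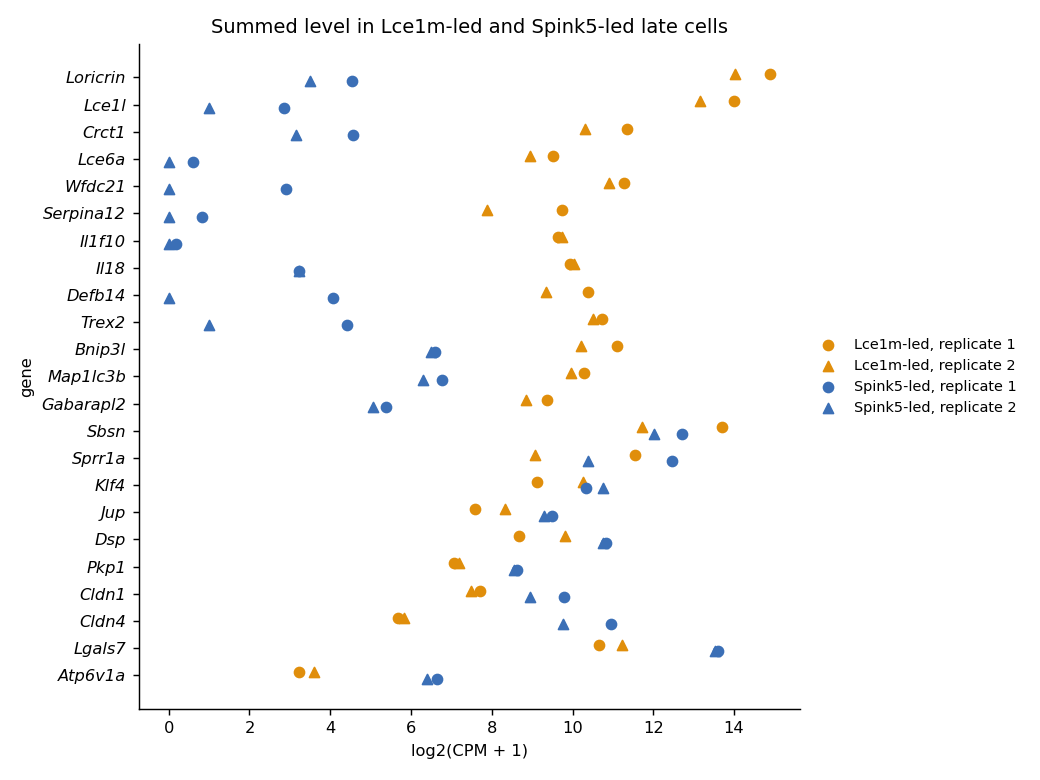
Summed level of 23 genes as log2(CPM + 1) in Lce1m-led (orange) and Spink5-led (blue) late cells, with circles for skin replicate 1 and triangles for replicate 2. The orange points of genes such as Loricrin and Il18 stand far right of the blue ones in both replicates, those of Sbsn and Sprr1a lie near them, and those of Cldn4, Lgals7 and Atp6v1a stand to their left.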

How the data were processed

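The deposited values are raw UMI counts per gene and cell barcode, which the authors made with STAR and Cell Ranger 6.0.1, per the submitters' processing notes, while the matrix headers name Cell Ranger 7.0.0. The notes name the builds mRatBN7.2 and GRCh38.p13. A barcode was kept if it had 500 or more genes and no more than 20% of UMIs from mitochondrial genes. The cells, gene lists and comparisons were chosen with earlier results of these data known, and the lists matched 371 of 427 symbols. Genes with only an identifier (7162 of 30560) were tested but not named. Doublets were marked with Scrublet in Scanpy 1.11.5, and where it marked under 0.5% of a library the top-scoring 0.8% per 1000 cells was taken instead.

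Counts were summed per class and library, 10 sums of 5 classes or 12 with the late class divided, and tested with edgeR 4.0.16 in R 4.3.3 (TMM, filterByExpr, quasi-likelihood, library as block, Benjamini-Hochberg adjustment, threshold 0.05). The library block was set by design because all classes come from the same libraries. DESeq2 1.42.0 was an alternative. The SE of a change was derived from its test statistic, and genes at 0 were set to 3 counts over both libraries. Ratios with a counting interval pool UMIs over both libraries and leave out the block. The genes named were those of largest change with at least 50 CPM in the higher class of both libraries and sums that did not overlap (14 higher and 10 lower against Ly6d cells, 6 and 6 more against basal-like cells, 8 and 8 between Lce1m-led and Spink5-led cells), plus up to 4 members per list. Genes beyond this rule were chosen after their values were seen. The scripts were tested on simulated data. Sequences come from RefSeq tables of GRCr8, a build other than that of the counts, so only names join them.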

Additional observations from a re-analysis of the deposited data

How the results depend on the processing

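Samples of the same library were treated as a block, since classes were cut from the same cells. With no replicate block, that is without this pairing, 178 genes were called against Ly6d cells, 492 against basal-like cells, 387 between Lce1m-led and Spink5-led cells and 0 against Krt79 cells, and 28 of 68 named values lost their call. Against Ly6d cells, 1090 genes were called without the filter on low counts and 1100 with at least 5 UMIs of the rule genes, against 711. Between Lce1m-led and Spink5-led cells, 270 were called with only these 2 classes in the fit, 308 with a rule of 0.03% of UMIs and 358 inside the keratin gate, against 715. Inside that gate Ivl changed by -0.63 (edgeR adjusted p = 0.889) and Sbsn by -2.13 (0.0611), and neither was called before. The comparison with Krt79 cells was the least settled: its 15 calls became 326 with DESeq2, 286 without the filter, 213 with only 2 classes, 107 with class limits of 0.05%, 69 with at least 5 UMIs, 50 in cells of at least 2000 UMIs, 31 with at least 1000 genes, 30 without the cells of highest doublet score, 25 with the 0.03% rule, and 0 inside the keratin gate or with Spink5-led cells alone. The share of late cells was 3.51% and 0.505% with at least 5 UMIs, 3.66% and 2.58% with the 0.03% rule, and in replicate 2 it was 1.42% in cells of at least 2000 UMIs and 1.28% with at least 1000 genes. The cause of these shifts was not tested. Of 1219 values of named genes under all settings, 1116 were labelled the same, 75 lost the call, 4 gained it, 22 moved and 2 reversed. In settings with a test, the same means that direction and side of the threshold were kept. Where a library was left out, it means only a change within the standard deviation of the 2 single-library values. Such a limit widens as the libraries disagree, so this label says little about how well they agree. A change within it was found for 51 of 68 values without replicate 1 and 63 of 68 without replicate 2, and all 22 that moved come from these settings. Leaving out a library leaves no residual degrees of freedom, so those values have no test, and each library's own levels stand in the text. With 2 libraries per class and few Lce1m-led cells, small changes are beyond the reach of these tests. The alternatives on Krt79 cells, other-type RNA, Spink5-led cells alone and Lce1m-led cells that lead by 1 UMI were chosen after seeing the data.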
